A study of Mus musculus with 16 samples.

Results

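Strong sites of RNA polymerase II (Pol II) that carried no listed Mediator were examined in mouse neural progenitor cells. Windows of 50 bp in the Pol II list of control siRNA cells were joined when up to 200 bp apart, which gave 16073 regions, 15677 of them on autosomes. Of these, 7144 autosomal regions had a highest window of signal 20 or more and are called strong here. The regions described are the 3283 strong ones under 1200 bp wide that shared no base with a Med26 or Cdk8 region of control siRNA cells (46.0% of the strong regions, 95% Wilson interval 44.8 to 47.1%). They are called Mediator-unlisted regions below. They are set against the 3138 strong regions under 1200 bp that overlapped a control Med26 region, called Med26-holding regions. Both groups were chosen by their control Pol II signal, their width and the control Mediator lists, so these values are given as description.

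All cells were neural progenitors derived from the V6.5 mouse embryonic stem cell line through 4 days of embryoid body formation, and were crosslinked with 1% formaldehyde. Untreated cells gave 2 Cbx3 libraries (sets 1 and 2) and 1 Pol II library. Cells transfected for 72 hours with siRNA against luciferase (control siRNA) or against Cbx3 (Cbx3 siRNA) gave 1 library per arm for each of Med26, Cdk8 and Pol II. Nothing in the sources used here says whether the Cbx3 sets came from separate cultures. With 1 library per arm there is no replicate check of any siRNA difference, and no p-value is given.

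Mediator is a large coactivator that links sequence-bound activators to Pol II at promoters and enhancers. Med26 is a subunit found on the form of Mediator that associates with Pol II and elongation factors. Cdk8 is the kinase of a module that binds Mediator reversibly and is known to keep Pol II off the complex. Cbx3 (HP1 gamma) is a chromodomain protein that binds methylated histone H3 in heterochromatin and is also found along active genes.

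The lists bound what can be said. Each holds only windows above a minimum, with lowest values of 6.006 in both siRNA Pol II lists and about 6.01 in the Mediator lists, and a site that is not listed may still carry signal. Control Med26 was close to that limit at many sites that were listed. In the Med26-holding regions the highest Med26 window had a median signal of 11.1 (quartiles 9.01 and 13.8), 37.2% had a highest window under 10, and in 24.3% only 1 window lay within the Pol II region. The Pol II values were whole multiples of 0.022 in both siRNA lists. On the reading that 50 such steps are 1 read, which is inferred from the values, the highest control window of a Mediator-unlisted region held a median of 25.7 reads. The authors' build was mm9, and no genome or gene annotation of that build was used here, so regions are given by position and not by gene.

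By their medians the Mediator-unlisted regions were narrower and lower than the Med26-holding ones, but wider and higher than all autosomal control Pol II regions. Their highest control Pol II signal ranged from 20.02 to 139.5 with a median of 28.1 (quartiles 23.6 and 35.3). The median was 33.1 in the Med26-holding regions and 18.2 in all autosomal regions, where no signal limit was set. The width of the Mediator-unlisted regions ranged from 50 to 1150 bp with a median of 450 bp (quartiles 300 and 600), and they held a median of 9 listed windows. Median widths were 550 bp in the Med26-holding and 300 bp in all autosomal regions. Only 1 of the 3283 was a single window. Higher signal went with greater width (Spearman's rho 0.29 across the 3283 regions, which share 1 library). Mediator was missing from the control lists most often where Pol II was weaker. Of the strong regions with signals from 20 to 25, 61.5% (59.3 to 63.8%) had neither Med26 nor Cdk8, falling to 53.2% from 25 to 30, 42.0% from 30 to 40, 33.4% from 40 to 60 and 28.5% (23.7 to 33.8%) at 60 or more.

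The limits of the choice cut through a continuous range. The region on chromosome 1 between 82279751 and 82280200, just inside the signal limit, reached 20.02, as did those on chromosome 3 (99966151 to 99966600) and chromosome 4 (147242551 to 147243100). Just outside it, regions on chromosome 11 (52096551 to 52096950, and 86940251 to 86940850) and chromosome 19 (4163201 to 4163400) reached 19.998. Among regions without listed Mediator, the widest ones kept were 1150 bp, such as chromosome 13 from 56803851 to 56805000 with a signal of 64.1. The next ones left out were 1200 bp, such as chromosome 13 from 23673301 to 23674500 with a signal of 66.9. A further 88 strong regions without Mediator were 1200 bp or wider.

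The strongest Mediator-unlisted site lay on chromosome 11 from 87256801 to 87257400. Its highest Pol II window was 105.2 in untreated cells, 139.5 under control siRNA and 90.4 under Cbx3 siRNA, so the control library was the highest of the 3. It held Cbx3 of set 2 at a signal of 12.04 and no Cbx3 of set 1, and the nearest control Med26 region was 4900 bp away. The second strongest, on chromosome 11 from 87275901 to 87276400, lay 18500 bp from the first and showed 77.5, 104.96 and 73.8 in the same order. A second close pair was on chromosome 3, from 108357451 to 108357800 and from 108374351 to 108374800, 16550 bp apart. The former had Pol II signals of 66.3, 87.9 and 71.1 and Cbx3 set 1 at 55.2. The latter had 46.4, 95.7 and 63.4 and no listed Cbx3.

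Other sites of the highest signal differed more between libraries. On chromosome 1 from 72301301 to 72302350, a region of 1050 bp, Pol II was 88.1 untreated, 92.6 under control and 93.5 under Cbx3 siRNA, level across the 3 libraries by the highest window, though the windows listed in both siRNA arms had a median log2 difference of -0.35. It was 42.3, 89.1 and 39.6 on chromosome 9 (40609201 to 40609600) and 34.9, 88.3 and 39.4 on chromosome 5 (21207101 to 21207800), log2 differences of -1.17 and -1.16 between the siRNA arms. At both sites the untreated and Cbx3 siRNA libraries lay close together and the control stood above them. The remaining 3 of the 10 strongest were on chromosome 11 from 94072601 to 94073350 (69.6, 93.2 and 70.6), chromosome 8 from 47296051 to 47296750 (83.9, 91.5 and 66.4) and chromosome 11 from 51420101 to 51420900 (65.4, 86.9 and 63.1). All 10 were listed in untreated cells and after Cbx3 siRNA. Of the 10, 9 were lower after Cbx3 siRNA than in the control, 6 held Cbx3 set 1, and none held Cbx3 of both sets. High control signal chose these 10, so a lower value after Cbx3 siRNA is partly built in, and the counts are description. Of all strong regions, 83.1% were listed in untreated cells and 99.0% after Cbx3 siRNA. As further background, 86.7% of strong regions were lower, 57.8% held Cbx3 set 1 and 7.59% held Cbx3 of both sets.

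**Figure D1:**
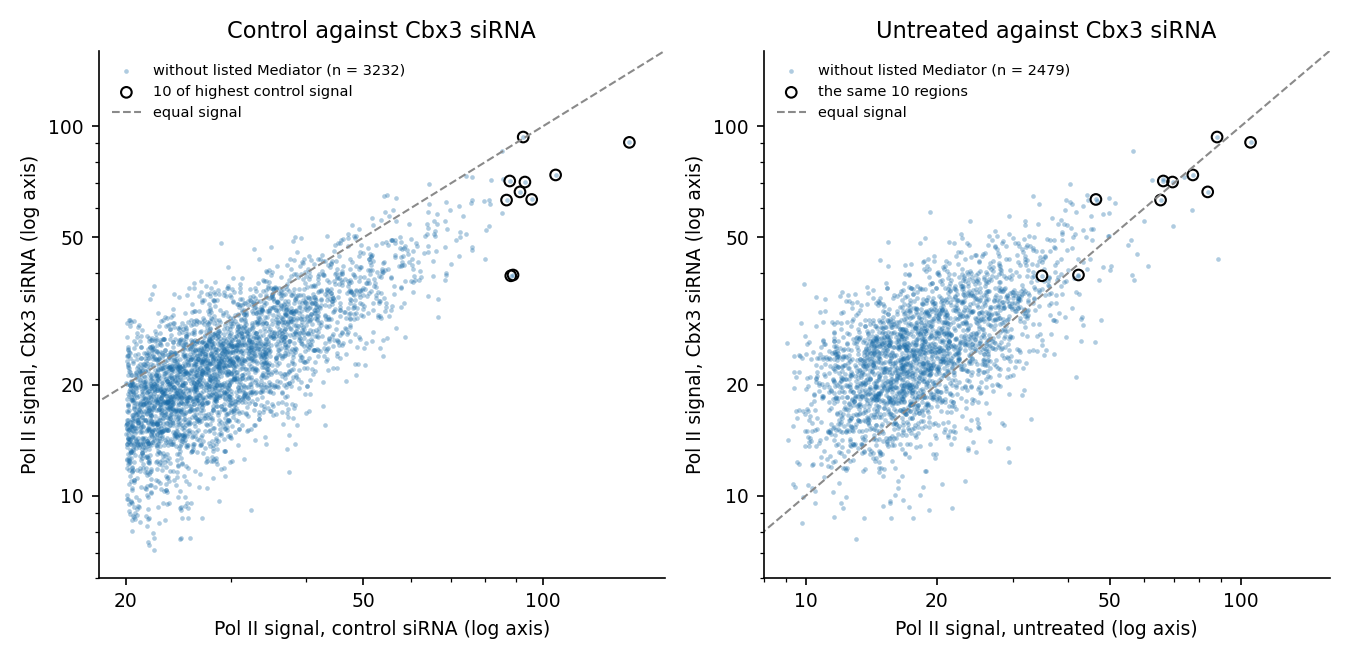
Highest Pol II window of each strong region without listed Mediator, as deposited, on logarithmic axes: control against Cbx3 siRNA on the left (3232 regions listed in both) and untreated against Cbx3 siRNA on the right (2479 regions). Circles mark the 10 regions of highest control signal; 86.8% of the regions lie under the dashed line of equal signal on the left, and 80.8% lie above it on the right.

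Regions without Mediator were narrower than regions with Med26, also when no width limit was set. Over all widths, the median was 450 bp for the 3371 strong regions without listed Mediator (quartiles 300 and 650) and 600 bp for the 3403 with Med26 (quartiles 450 and 850). The difference between the medians was -150 bp. With the Med26 regions weighted to the same classes of signal their median width was 550 bp. A single base shared with Mediator placed a region outside the group without it, and a wider region has more room for that. The width gap is therefore partly built in by the choice, and weighting by signal does not remove this. Regions of 1200 bp or wider made up 2.61% (2.12 to 3.21%) of those without Mediator and 7.79% (6.93 to 8.74%) of those with Med26. Under the width limit, 15.1% of the Mediator-unlisted and 5.26% of the Med26-holding regions were under 300 bp. The backgrounds over all widths were 9.55% of strong and 46.4% of all autosomal regions.

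**Figure D2:**
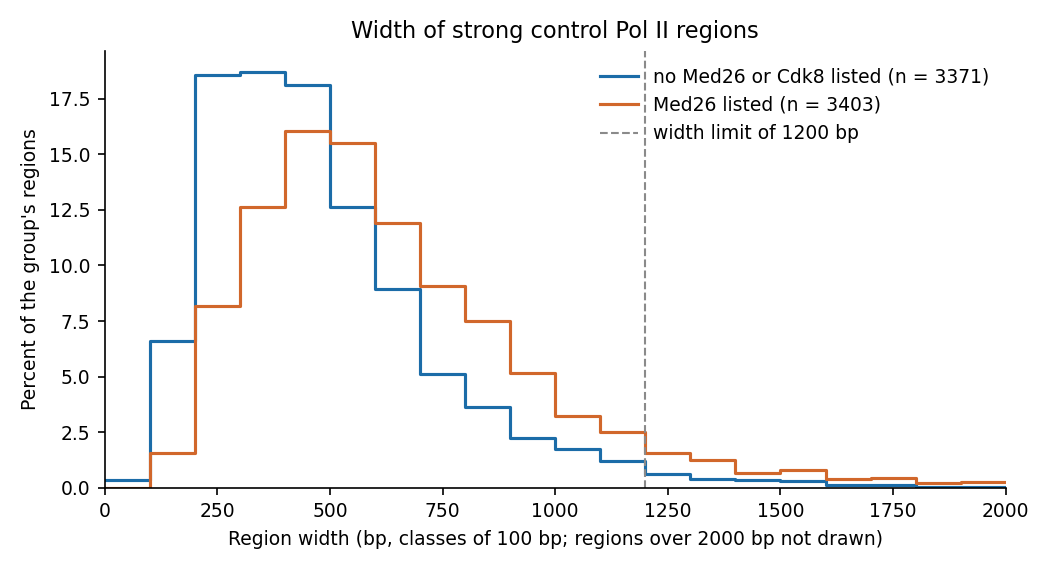
Width of strong autosomal Pol II regions of control siRNA cells, in classes of 100 bp, as a percent of the 3371 regions with no listed Med26 or Cdk8 and of the 3403 with listed Med26. The curve of regions without Mediator lies to the left, with medians of 450 and 600 bp; the dashed line is the width limit.

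Most of these Pol II sites were also found in untreated cells, a library that the choice did not use. There, 2502 of the 3283 Mediator-unlisted regions were listed (76.2%, 74.7 to 77.6%), against 88.9% (87.7 to 89.9%) of the Med26-holding regions. The background was 83.1% of all strong and 44.9% of all autosomal control Pol II regions. The gap of -12.7 points (interval -14.5 to -10.8) was -6.27 points (-8.42 to -4.08) when the Med26-holding regions were weighted to the same classes of signal and width. It was widest in the weakest class: from 20 to 25, 56.4% of the Mediator-unlisted and 72.8% of the Med26-holding regions were listed, while from 40 to 60 the shares were 97.9% and 98.1%. The untreated list started at 9.016, above the 6.006 of the control list, so a weak site can fall out of it more easily. The 781 Mediator-unlisted sites missing from the untreated list had a median control signal of 23.6 and a median width of 350 bp, and those that were listed 30.2 and 500 bp. Where both libraries listed a region, control siRNA exceeded untreated by a median of 0.76 on the log2 scale (interval 0.74 to 0.78) in the Mediator-unlisted regions. How the authors scaled the libraries is not given in the sources used here, and the step of the values was 0.0211 in the untreated and 0.022 in the siRNA lists. Levels set side by side across these libraries are therefore the deposited values only.

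Pol II was lower after Cbx3 siRNA at most Mediator-unlisted regions, with a median difference close to that of Med26-holding ones. Of the 3283, 3232 (98.4%, 98.0 to 98.8%) were still listed. The other 51 were not, and the background of regions not listed was 1.04% of strong and 31.9% of all autosomal control regions. The highest window had a median of 28.1 in the control over all 3283 and of 22.6 after Cbx3 siRNA over the 3232. On the log2 scale the Cbx3 siRNA library stood at a median of -0.39 relative to the control (interval -0.40 to -0.37), with quartiles of -0.63 and -0.16. In the 3119 Med26-holding regions listed in both it was -0.36 (-0.38 to -0.34). The difference between these medians was -0.024, with an interval from -0.046 to -0.0036, and -0.044 with equal classes of signal and width. That interval took in 0 under other limits of signal, a wider merging distance or a wider distance to Mediator. Over all 10660 autosomal regions listed in both the median was -0.30. Lower signal was seen in 86.8% of the Mediator-unlisted and 86.9% of the Med26-holding regions, with 86.7% of strong and 78.6% of all autosomal regions as the background. Since high control signal chose both groups, nothing about Mediator is read from these shares.

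The control signal chose the regions, sets their class and is subtracted in the difference, so the trend over classes is partly built in. In Mediator-unlisted regions the median log2 difference was -0.36 (-0.38 to -0.33) for signals from 20 to 25, -0.40 from 30 to 40 and -0.47 (-0.54 to -0.38) at 60 or more. In Med26-holding regions it was -0.23 (-0.27 to -0.20), -0.37 and -0.46 (-0.51 to -0.42) in the same classes. The intervals of the groups overlapped in every class above 25 and did not from 20 to 25. Against untreated Pol II, over regions listed in that library, the groups were level in that lowest class, with medians of 0.32 in both. Over the 5 classes the Mediator-unlisted medians against untreated Pol II were 0.32, 0.35, 0.45, 0.45 and 0.39, with no steady trend. Narrow Mediator-unlisted regions differed most, with -0.46 (-0.50 to -0.41) under 300 bp and -0.33 (-0.37 to -0.29) from 800 to 1200 bp. Med26-holding regions showed -0.39 (-0.45 to -0.27) and -0.35 (-0.38 to -0.32) in these width classes, with intervals that overlapped. Spearman's rho of width with the log2 difference was 0.11 in Mediator-unlisted and 0.011 in Med26-holding regions, which share libraries. Untreated Pol II played no part in the choice of regions, but only regions listed there can be set against it. Cbx3 siRNA was higher than untreated by 0.38 (0.36 to 0.40) in 2479 Mediator-unlisted regions and by 0.40 (0.38 to 0.42) in 2782 Med26-holding ones. The sign thus depends on the reference library. The gap between these 2 medians, -0.024 (interval -0.053 to 0.0051), became -0.0018 with equal classes of signal and width. The untreated list left out more Mediator-unlisted than Med26-holding regions, with 76.2% and 88.9% listed, and 56.4% and 72.8% from 20 to 25. The values against untreated Pol II are therefore description.

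**Figure D3:**
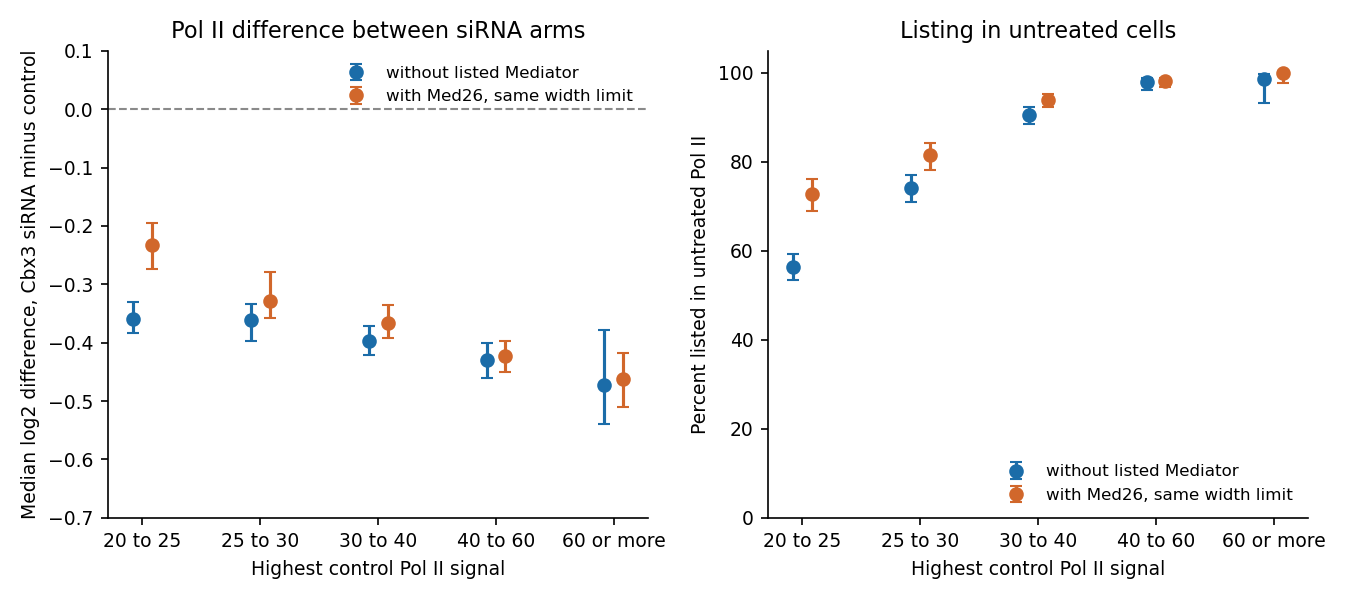
Strong Pol II regions by class of highest control signal, for those without listed Mediator and those with Med26 (both under 1200 bp). Left, median log2 Pol II difference with 95% intervals of the order statistics, which overlap except from 20 to 25 (-0.36 and -0.23); right, percent listed in untreated cells with 95% Wilson intervals, from 56.4 and 72.8% in that class to 98.8 and 100% at 60 or more.

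From the inferred reads, the counting error of a log2 difference had a median SD of 0.43 in Mediator-unlisted regions, while the SD taken from the observed quartiles was 0.35. The inferred error exceeded the observed spread in every signal class, so it is given only as a rough scale for the single sites below. A log2 difference of -1 or lower was found at 199 of 3232 Mediator-unlisted regions (6.16%, 5.38 to 7.04%), and at 102 of 3119 Med26-holding regions (3.27%, 2.70 to 3.95%). The backgrounds were 4.51% of strong and 3.79% of all autosomal regions. One of 0.5 or higher was found at 15 (0.464%), against 0.438% and 2.35%. The highest window chose these regions, so both counts are description.

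The lowest log2 difference was on chromosome 10 from 128106001 to 128106300, where Pol II was 19.2 untreated, 32.4 in the control and 9.15 after Cbx3 siRNA (log2 difference -1.82, counting SD 0.57). It went from 25.6 to 7.70 on chromosome 7 (52662201 to 52662450) and from 24.7 to 7.70 on chromosome 15 (76489951 to 76490500), neither of them listed in untreated cells. On chromosome 9 from 105545251 to 105545500 the values were 13.04, 24.6 and 7.66. Another of the 5 lowest, on chromosome 1 from 197067701 to 197068000, went from 37.5 to 11.6 by its highest window. Over the windows listed in both libraries its median log2 difference was 0.053, so the direction there depends on the measure. It also held Cbx3 at 215.8 in set 1 and 124.1 in set 2.

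The highest log2 difference was on chromosome 9 from 42072151 to 42072600, where Pol II was 30.2 untreated, 28.8 in the control and 48.3 after Cbx3 siRNA (log2 difference 0.75, counting SD 0.36). On chromosome 12 from 81744551 to 81744900 it went from 22.3 to 37.0, with Cdk8 listed after Cbx3 siRNA at 9.56 and a control Med26 region 250 bp away. The others were on chromosome 11 from 79473751 to 79474300 (22.1 to 35.1), chromosome 7 from 150646751 to 150647000 (21.9 to 34.1) and chromosome 14 from 63796951 to 63797300 (20.3 to 29.9). Of the sites with no Pol II listed after Cbx3 siRNA, the strongest was on chromosome 12 from 76919201 to 76919500, with 13.9 untreated and 36.1 in the control. Next came chromosome 10 from 61803001 to 61803200 (22.3 and 32.4), chromosome 5 from 77403601 to 77403900 (12.2 and 27.7) and chromosome 1 from 87790951 to 87791300 (10.7 and 27.7). Pol II was listed by the control alone, at 27.1, on chromosome 3 (89070401 to 89070700).

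Cbx3 of untreated cells was listed at Mediator-unlisted regions somewhat less often than at Med26-holding ones. Set 1 overlapped 1698 of the 3283 (51.7%, 50.01 to 53.4%) and 60.9% (59.2 to 62.6%) of the Med26-holding regions, with backgrounds of 57.8% of strong and 40.2% of all autosomal Pol II regions. Set 2 overlapped 473 (14.4%, 13.2 to 15.7%) and 19.3%, with backgrounds of 17.9% and 12.0%. Cbx3 regions of set 1 that overlapped set 2, called Cbx3 of both sets, were found at 202 (6.15%, 5.38 to 7.03%) and at 8.80% (7.85 to 9.84%), with backgrounds of 7.59% and 5.65%. Each set overlapped the Pol II region, whether or not the sets overlapped each other, at 8.74% and 13.8%, with backgrounds of 12.3% and 7.58%. Neither set was listed at 42.6% and 33.6%, with backgrounds of 36.6% of strong and 55.4% of all autosomal regions. The set 1 list held 419145 regions from a lowest value of 6.05, and the set 2 list 126451 from 8.03. Whether the sets met more often than such list sizes give was not tested, so listing in both is not read as reproduced. The gap for both sets was -2.64 points (interval -3.94 to -1.36). It was -0.379 points (-1.59 to 0.82) when stretches listed in 6 or more libraries were left out, a step that removes mostly Med26-holding regions.

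Width went with Cbx3 listing in both groups. In Mediator-unlisted regions, set 1 was listed at 35.7% of those under 300 bp and at 71.1% of those from 800 to 1200 bp, and in Med26-holding regions at 41.8% and 75.2%. With the Med26-holding regions weighted to the same classes of signal and width, the set 1 gap shrank from -9.21 to -3.39 points (interval -6.09 to -0.673). For set 2 it went from -4.94 to -2.64 points (-4.66 to -0.672), and for both sets to -2.20 points (-3.66 to -0.796). Where Cbx3 was listed, the median highest windows were 57.8 and 58.9 in set 1 and 17.2 and 17.8 in set 2, Mediator-unlisted regions first. Listed Cbx3 was centred on Pol II: at the highest Pol II window itself 20.6% of Mediator-unlisted regions had a listed set 1 window, falling to a mean of 3.62% at 500 to 1000 bp and 1.45% at 1500 to 2000 bp. The Med26-holding regions showed 23.6%, 3.39% and 1.14%.

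**Figure D4:**
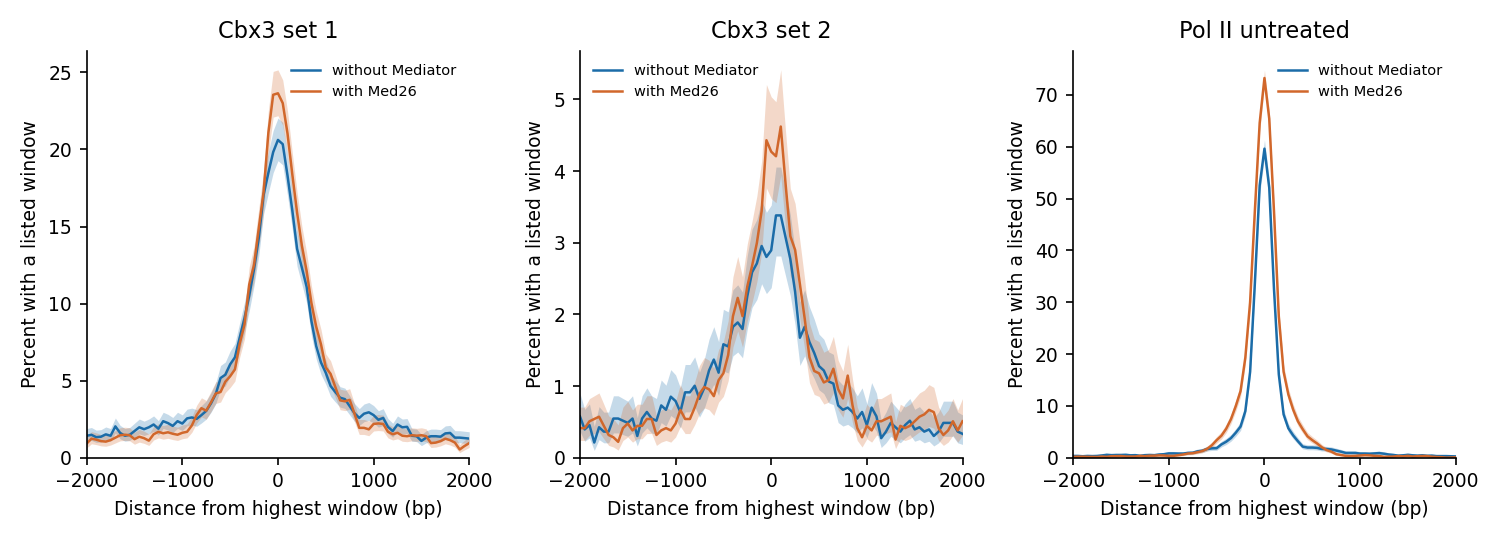
Percent of regions with a listed 50 bp window at each distance from the highest control Pol II window, for strong regions without listed Mediator and with Med26, with 95% Wilson bands. Cbx3 set 1, Cbx3 set 2 and untreated Pol II all peak within 100 bp of that window, at 20.6 and 23.6% for set 1 and 59.6 and 73.2% for untreated Pol II.

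The Pol II difference between the siRNA arms did not separate regions with and without Cbx3. Its median was -0.37 (-0.42 to -0.33) in the Mediator-unlisted regions with Cbx3 of both sets and -0.39 (-0.41 to -0.37) in the 1399 with neither set. The highest Cbx3 signals among Mediator-unlisted regions, on chromosome 11 from 3093401 to 3093500, were 1075 in set 1 and 1093 in set 2. Pol II there was 74.2 in the control and 73.2 after Cbx3 siRNA but was not listed in untreated cells, and a control Cdk8 region touched its edge without sharing a base. On chromosome 8 from 19784651 to 19784800 Cbx3 was 105.5 and 52.5 and Pol II 27.2, 36.3 and 25.9, with a control Med26 region touching its edge. On chromosome 16 from 32877601 to 32878150 Cbx3 was 118.5 and 41.5 and Pol II 18.3, 36.7 and 36.3. On chromosome 15 from 37163851 to 37164400 Cbx3 was 86.1 and 39.9 and Pol II 18.7, 28.6 and 24.02. Inputs were not used here, so signal not particular to Cbx3 or Pol II cannot be told apart at such sites.

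Mediator was listed at a minority of these regions in the Cbx3 siRNA arm. The whole Med26 list was shorter in that arm, with 1745 regions against 5990 in the control, while Cdk8 had 6094 against 5574. Low Med26 shares are therefore not read as a trait of these regions, nor set against the Cdk8 shares. Med26 of Cbx3 siRNA cells lay at 131 of the 3283 (3.99%, 3.37 to 4.72%) and at 17.2% (15.9 to 18.6%) of the Med26-holding regions, with backgrounds of 10.7% of strong and 5.35% of all autosomal Pol II regions. Cdk8 lay at 346 (10.5%, 9.53 to 11.6%) and at 15.2% (14.0 to 16.5%), with backgrounds of 14.7% and 8.75%. With equal classes of signal and width the gaps were -10.7 points (interval -12.4 to -9.10) for Med26 and -3.21 points (-5.04 to -1.44) for Cdk8. The control Med26 and Cdk8 lists chose the groups, so both gaps are partly built in and are description. Cdk8 after Cbx3 siRNA was found at 12.9% of Med26-holding regions without control Cdk8 and at 34.4% of all strong regions with it. So 459 of the 3283 (14.0%, 12.8 to 15.2%) carried Med26 or Cdk8 in the Cbx3 siRNA lists, 18 of them both. Either was listed at 29.6% of the Med26-holding regions, with backgrounds of 23.5% of strong and 13.2% of all autosomal Pol II regions. The signals at Mediator-unlisted regions were low, with medians of 7.89 for Med26 and 9.04 for Cdk8, and 86.3% and 68.5% of them were under 10.

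**Figure D5:**
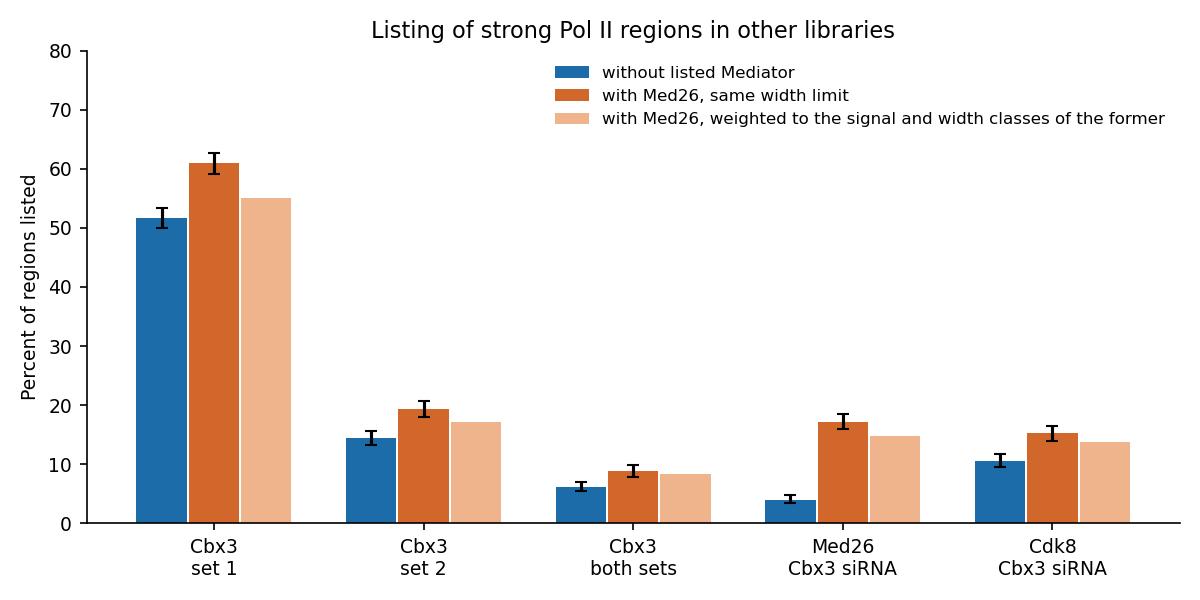
Percent of strong Pol II regions listed in both Cbx3 sets, singly and together, and in the Med26 and Cdk8 libraries of Cbx3 siRNA cells; bars start at 0, and the dark ones carry 95% Wilson intervals. Regions without listed Mediator are lower in each library, by most for Med26 (3.99 against 17.2%), where the choice by control Med26 builds in part of the gap. The pale bars give Med26-holding regions weighted to the same classes of signal and width.

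Among the sites with Mediator after Cbx3 siRNA, the strongest was on chromosome 11 from 94072601 to 94073350, with Cdk8 at 9.22. Med26 was listed at 10.9 on chromosome 15 from 80085851 to 80086550, where Pol II was 49.7 untreated, 85.3 in the control and 58.3 after Cbx3 siRNA. It was listed at 8.66 on chromosome 7 from 30768401 to 30769200, where Pol II was 62.5, 81.7 and 71.7. Cdk8 was listed at 9.87 on chromosome 2 from 29820701 to 29821400 and at 7.81 on chromosome 10 from 23506601 to 23507550. At each of these 5 sites the nearest control Med26 region was 8000 bp or more away, while a control Cdk8 region lay 2200 bp from the chromosome 2 site. The median log2 Pol II difference was -0.37 (-0.40 to -0.32) in the 459 regions and -0.39 (-0.40 to -0.37) in the 2824 without Mediator in either arm.

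The choice left out every region that overlapped control Mediator, so distances to it are given as description. The nearest control Med26 or Cdk8 region was a median of 28850 bp away (quartiles 8125 and 71575 bp). It lay within 500 bp of 359 regions (10.9%) and within 1000 bp of 427 (13.0%, 11.9 to 14.2%). The backgrounds within 1000 bp, overlaps included, were 59.0% of all strong and 40.9% of all autosomal Pol II regions. Mediator-unlisted regions within 1000 bp showed a Pol II difference of -0.40 (-0.44 to -0.35), and the other Mediator-unlisted regions -0.38 (-0.40 to -0.37). Another Pol II region lay within 1000 bp of 23.5% (interval 22.1 to 24.996%), against 18.4% (17.0 to 19.7%) of the Med26-holding regions. In separate counts, 155 Mediator-unlisted regions had another Mediator-unlisted region within 1000 bp, and 81 had a strong region with Med26 within it. No share over all strong or all autosomal regions is given for these neighbours, so they are description. Regions joined or split by the distance of 200 bp are therefore not all separate sites.

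Every autosome held such regions. They made up from 39.7% (34.5 to 45.2%) of the strong regions on chromosome 6 to 52.0% (47.7 to 56.3%) on chromosome 7, the lowest and highest of the 19 autosomes. They fell in 1212 stretches of 1 Mb, of which 473 held a single one and 186 held 5 or more. The fullest, chosen after the counts were seen, were chromosome 10 from 80 to 81 Mb with 19 of 31 strong regions and chromosome 19 from 5 to 6 Mb with 18 of 30. Next were 16 of 33 between 79 and 80 Mb of chromosome 10, 16 of 21 between 127 and 128 Mb of chromosome 10, 15 of 27 between 134 and 135 Mb of chromosome 7 and 15 of 21 between 56 and 57 Mb of chromosome 17. The median log2 Pol II difference per stretch was -0.41, -0.44, -0.53, -0.48, -0.43 and -0.58 in that order.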

How the data were processed

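The authors deposited, for each of 9 ChIP libraries, windows of 50 bp with a signal value. Per the submitters' processing notes, Bowtie and build mm9 were used; how windows were tested, at which threshold and whether against inputs is not given in the sources used here. The 7 input libraries were not used. Values were whole multiples of 1 step per library, to within 0.05 of a step, for at least 99.997% of the values in each library. Windows up to 200 bp apart were merged; regions overlapped from 1 shared bp. Levels are highest windows. Wilson intervals, and binomial intervals of order statistics for medians (95%), cover counting error only; intervals of differences join both by the square-and-add method. Weighting used 5 classes of signal (bounds 20, 25, 30, 40, 60) and 5 of width (bounds 300, 450, 600, 800).

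The regions and comparisons were chosen with earlier results of these data known. The regions named were the 10 of highest signal, 5 each of the largest falls, rises, unlisted sites, Cbx3 signals and sites with Mediator after Cbx3 siRNA, and those at the limits. Motif and base composition comparisons were not run, since no genome of build mm9 was used. Merging, overlap and weighting were tested on 5000 simulated regions. Alternatives changed the limits, merging, Mediator distance, Cbx3 set, measure and reference. Computations ran in Python 3.11.15 with scipy 1.17.1, numpy 2.4.6 and pandas 2.3.3, and figures in matplotlib 3.10.9. Coordinates count from 1.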

Additional observations from a re-analysis of the deposited data

How the results depend on the processing

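Of 108 values recomputed under alternatives, 81 stayed within the counting interval of the reported value (for counts, within 1.5 times), 26 moved beyond it and 1 changed sign; the cause was not tested except where given. The sign changed for the Pol II difference of the Mediator-unlisted regions, which was 0.38 with untreated Pol II, where listed, as the reference. That difference was -0.36 in windows listed in both libraries and -0.60 for summed signal with windows not listed at 0, where missing windows count as losses by construction. At a signal of 15 or more it was -0.36, with 93.2% listed after Cbx3 siRNA, 62.5% in untreated cells, 3.17% with Med26 and 9.11% with Cdk8 after Cbx3 siRNA. At 30 or more there were 1364 regions, with -0.41, 99.9%, 93.5%, 5.21% and 12.1%. The gap to Med26-holding regions was -0.056 with equal signal classes, -0.063 for summed signal, -0.0020 against untreated Pol II with equal signal and width classes, and 0.0 when set against regions holding Cdk8. Its interval reached above 0 at a signal of 15 or more (to 0.0041) or 30 or more (to 0.0154), with windows up to 500 bp apart merged (to 0.0009), with no control Mediator within 500 bp (to 0.0013) and against untreated Pol II (to 0.0051). Cbx3 was listed at 51.7% by set 1, 14.4% by set 2 and 8.24% with windows up to 500 bp apart merged. The Cbx3 gap was -9.21 points by set 1, -4.94 by set 2 and -0.379 (interval -1.59 to 0.82) outside stretches listed in 6 or more libraries. That last choice removes 196 Med26-holding but only 6 Mediator-unlisted regions, because a site with Pol II in 3 libraries, both Cbx3 sets and control Med26 reaches 6. The width gap was -100 bp with only touching windows merged and with equal signal classes, and -200 bp at a signal of 15 or more. The equal classes of signal and width, and the alternatives for untreated Pol II, the Cbx3 gap by set, the width gap by choice of regions and Mediator after Cbx3 siRNA, were added after the data were seen. No paired analysis was possible because a single library stood for every antibody in an arm. The Mediator signals lay close to the lowest listed value, which limits what their absence from a list shows.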
